A study of Mus musculus with 8 samples.

Results

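The Flt3-ITD allele was compared on a background of Smc3 deletion in c-Kit+ mouse bone marrow cells, by ATAC-seq in 4 of the 8 libraries of the series. The groups set side by side had 2 libraries each: Smc3-deleted Flt3-ITD, whose genotype is given as Smc3 fl/del with Flt3-ITD, and Smc3 del/+. Both groups carried Mx1-Cre by their titles and received PIpC, and marrow was taken 4 weeks later, so the recombinase and its induction are common to the comparison. Mx1-Cre is driven by an interferon-responsive promoter and deletes floxed alleles in blood-forming cells, and in other cells that respond to interferon. Cells were selected with magnetic beads against Cd117 (c-Kit), with 50000 cells per library. Age and sex of the mice are not given in any source used for this work.

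The labels leave it unclear whether Smc3-deleted Flt3-ITD cells kept an intact copy of Smc3. The genotype field reads Smc3 fl/del and the title reads Smc3 heterozygous, so Smc3 dose and Flt3-ITD may both differ between the groups and cannot then be told apart. The free-text descriptions of the Smc3 del/+ and the Flt3-ITD libraries are also exchanged relative to their titles and genotypes. Titles and genotypes were followed, and the exchange was run as an alternative. Flt3-ITD (2 libraries, Mx1-Cre by title) and Smc3 fl/+ control (2 libraries, without Mx1-Cre) were also taken 4 weeks after PIpC, with 50000 cells per library. These 2 groups were read at the gained, lost and shared regions, which were chosen without them. They did enter the choice of 6 of the regions named below and of the regions called in all 8 libraries, as stated there.

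Smc3 is a core subunit of cohesin, the ring-shaped complex that holds sister chromatids together and, with CTCF, forms chromatin loops between enhancers and promoters. Flt3 is a receptor tyrosine kinase of early blood progenitors. Its internal tandem duplication (ITD) signals without ligand, activates Stat5 among other pathways, and is a frequent lesion in acute myeloid leukemia, where it can occur together with mutations of cohesin subunits. ATAC-seq marks DNA that the Tn5 transposase can reach, so peaks lie at promoters, enhancers and other open sites.

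The deposited data are peak lists, 1 per library, and hold no reads, so sequencing depth is unknown and presence, width and position of peaks are the measurements. On chromosomes 1 to 19, the Smc3-deleted Flt3-ITD lists held 78302 and 77849 peaks and the Smc3 del/+ lists 59641 and 61061. They covered 40.3 ± 0.110 Mb and 35.5 ± 0.480 Mb respectively (SD, n = 2 each). The sex chromosomes were left out because the groups differ there, with 294 and 282 peaks on Y in the combined genotype against 84 and 85 in Smc3 del/+. No annotation of the mm9 build was used, so no gene, exon or intron was assigned to a region, and marker genes of the c-Kit+ fraction were not analysed here.

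With Flt3-ITD added to Smc3 deletion, more regions were gained than lost. Merging the peaks of the 4 libraries wherever they overlapped by 1 bp or more gave 103969 autosomal regions. Of these, 38517 were shared, that is, they held a peak in all 4 libraries. A region with a peak is called open below, and closed otherwise. A region was counted as gained when both Smc3-deleted Flt3-ITD libraries and neither Smc3 del/+ library had a peak in it, and as lost in the reverse case. There were 13744 gained regions, 13.2% of all regions, and 4086 lost regions, 3.93% of all. Gains thus made up 77.1% of the changed regions (95% exact binomial interval 76.5% to 77.7%, for counting error only). With 2 libraries against 2, no exact two-sided permutation test can give a p under 0.33, so no p is given for any comparison of the groups.

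In region calls, replicates matched more closely than groups for the Smc3-deleted Flt3-ITD libraries but not for both Smc3 del/+ libraries. Of the regions called in the first Smc3-deleted Flt3-ITD library, 81.3% were called in the second, and 60.3% and 61.3% in the Smc3 del/+ libraries. Of those called in the first Smc3 del/+ library, 79.8% were called in the second, but also 79.6% and 79.2% in the longer lists of the combined genotype. Of those called in the second, 77.9% were called in the first, and 79.0% and 78.5% in the combined genotype, so this library matched the other group slightly more closely than its replicate. A further 30470 regions rested on a single library. In covered bases, the Jaccard index (bases in both lists over bases in either) was 0.348 and 0.371 for the pairs within a genotype, and between 0.281 and 0.286 for the 4 pairs between genotypes.

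**Figure D1:**
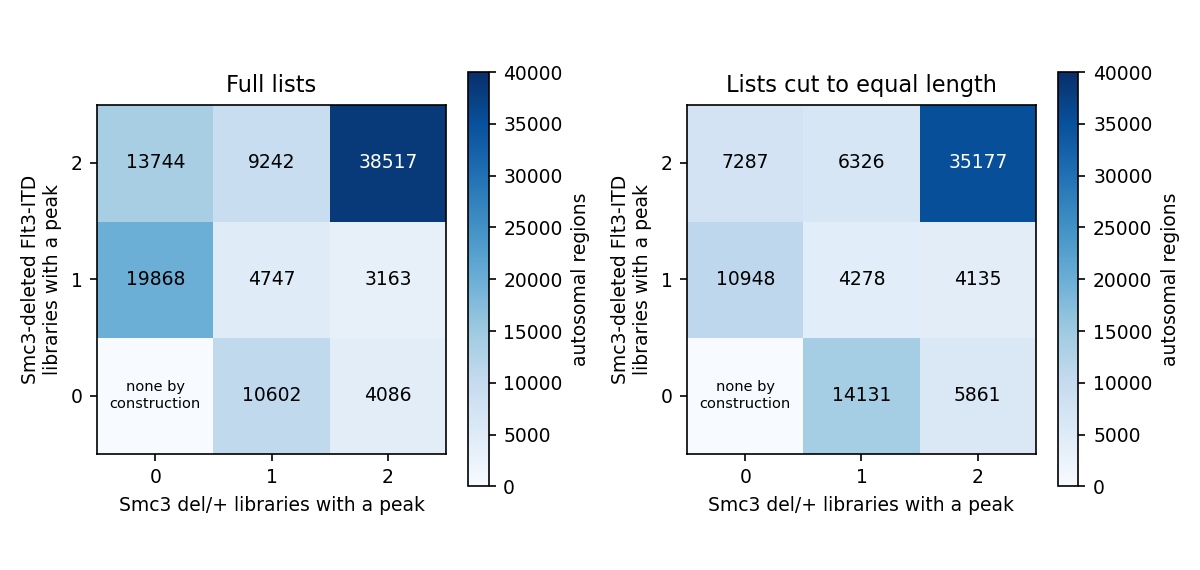
Number of autosomal regions by how many Smc3-deleted Flt3-ITD libraries (vertical axis) and Smc3 del/+ libraries (horizontal axis) had a peak, for full lists (left) and lists cut to equal length (right). The upper left cell holds gained regions (13744 and 7287), the lower right cell lost regions (4086 and 5861), and the upper right cell shared regions (38517 and 35177).

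The balance of gains and losses moved with list length. Each list was cut to the 59641 peaks of the shortest, by the authors' score and then by width. The counts became 7287 gained (8.27% of 88143 regions) and 5861 lost (6.65%), so that gains made up 55.4% of the changed regions (interval 54.6% to 56.3%). Regions with a peak in a single library went the other way, with 10948 in the combined genotype and 14131 in Smc3 del/+. The small excess of gains thus holds only where both replicates must have the peak. Of these 7287 gained regions, 7136 had no peak in the uncut Smc3 del/+ lists either. Of the 5861 lost regions, 3982 had none in the uncut lists of the combined genotype, whereas 1879 (32.1%) did have one below the limit of length. Between replicates, 83.4% of the regions of the first Smc3-deleted Flt3-ITD library and 78.6% of those of the first Smc3 del/+ library were then found in the second. Between groups, 70.7% to 72.3% of the regions of a library were found in a library of the other group, in either direction, so with equal lists every replicate pair (78.4% or more) matched more closely than the groups.

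Most gained regions ranked low in their own lists. Each list was ranked by score and then width and divided into 4 equal blocks. In the top block of the first Smc3-deleted Flt3-ITD list, 3.19% of peaks lay in gained and 87.5% in shared regions. In the third block 28.8% lay in gained and 36.0% in shared regions. The second replicate gave 3.45% and 87.3% in the top block, and 29.1% and 37.1% in the third. Lost regions had the same place in the Smc3 del/+ lists, with 1.94% and 2.37% of the peaks of the top block and 9.76% and 9.47% of the third. A score of exactly 1, the highest, was held by 7.18% and 7.70% of the peaks in gained regions, against 57.6% and 57.2% of the peaks in shared regions of the same 2 lists.

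The 6 gained regions that ranked highest all had the highest score, so width decided their rank and their breadth follows from the choice. At chr9:50852259-50853710 (mm9 throughout) the peaks were 1116 and 1452 bp wide in the Smc3-deleted Flt3-ITD libraries, and the nearest Smc3 del/+ peak lay 6481 bp away. Peaks also stood there in both Flt3-ITD libraries (360 and 341 bp) and both controls (933 and 1174 bp), so Smc3 del/+ was the genotype without one. The same held at chr17:73375314-73377557, with peaks of 1224 and 1287 bp, in Flt3-ITD of 1420 and 1004 bp and in control of 449 and 595 bp. It held as well at chr19:33196959-33198463, with peaks of 1505 and 942 bp, where a Smc3 del/+ peak lay 1826 bp away.

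In 3 further regions the other genotypes were split. At chr10:90445637-90446886 the peaks spanned 1198 and 1217 bp in the combined genotype, 1288 and 1180 bp in Flt3-ITD and 568 bp in 1 control library. Those at chr6:134211751-134213750 spanned 1340 and 950 bp in the combined genotype, 1214 and 958 bp in Flt3-ITD and 736 bp in 1 control library. In both places the nearest Smc3 del/+ peak was over 10 kb away, at 12686 and 13597 bp. At chr8:92902791-92903975, with peaks of 1075 and 1185 bp, 1 Flt3-ITD and 1 control library had a peak, and a Smc3 del/+ peak lay 567 bp from the region.

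The next 3 gained regions were chosen as the highest-ranking ones with a peak in both Flt3-ITD libraries and in no control library, so that pattern is a description of the choice. The region at chr17:57810207-57812145 had peaks of 1156 and 1026 bp in Smc3-deleted Flt3-ITD and of 1799 and 1330 bp in Flt3-ITD. It stood alone, with the nearest Smc3 del/+ peak 96540 bp and the nearest shared region 311621 bp away. At chr9:64411703-64413011 the peaks spanned 965 and 1187 bp in the combined genotype and 322 and 903 bp in Flt3-ITD, and the nearest Smc3 del/+ peak was 29559 bp away. At chr1:184684693-184685861 they spanned 1025 and 1169 bp, and 1210 and 366 bp in Flt3-ITD, with a Smc3 del/+ peak at 8338 bp.

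Of the 6 highest-ranking lost regions, whose rank was again decided by width, 4 were open in control and closed in Flt3-ITD. The first 3 given here also meet the choice by that pattern. The regions chr8:108344575-108346008 (1363 and 1434 bp in Smc3 del/+, 1103 and 1312 bp in control) and chr2:6184318-6186155 (1466 and 1246 bp, and 1488 and 836 bp in control) had no peak in any of the 4 libraries with Flt3-ITD. So did chr18:85053661-85055549 (1271 and 1433 bp, and 380 and 1484 bp in control) and chr5:44594355-44595812 (1407 and 1284 bp, and 1062 and 469 bp in control). In these 4 regions the nearest peak of the combined genotype lay between 2594 and 3373 bp away.

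The first 2 lost regions by rank showed another pattern. At chr7:29159664-29161258 both Smc3 del/+ libraries (1302 and 1580 bp) and both Flt3-ITD libraries (1318 and 1268 bp) had a broad peak, and neither the controls nor the combined genotype had one. At chr10:68675446-68676903 the Smc3 del/+ peaks spanned 1412 and 1396 bp, 1 Flt3-ITD library had a peak of 282 bp, and a peak of the combined genotype lay 370 bp outside the region.

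Of the lost regions with no peak of the combined genotype within 10 kb that were lost in the equal-length lists too, the first 4 by rank were all open in both controls. At chr1:146985581-146986883 the peaks measured 996 and 1303 bp in Smc3 del/+ and 1189 and 1312 bp in control, but 167 and 293 bp in Flt3-ITD. No peak of the combined genotype lay within 151162 bp. At chr4:29050858-29052140 (921 and 1274 bp) and chr11:90536701-90537905 (1012 and 1204 bp) neither Flt3-ITD library had a peak. At chr13:96440950-96442183 (1234 and 1081 bp) 1 Flt3-ITD library had one, of 878 bp.

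Read in the 4 libraries that had no part in choosing them, lost regions were open in control more often than in Flt3-ITD. Of the 4086 lost regions, 71.9% and 53.0% had a peak in the control libraries and 21.2% and 20.5% in the Flt3-ITD libraries, so these groups do not overlap. The difference of the means was -41.6 percentage points (Flt3-ITD minus control), and fell in size to -21.4 without Smc3 del/+ replicate 1 and -21.1 without Smc3 del/+ replicate 2. Over all 103969 regions the Flt3-ITD libraries had a peak in 57.7% and 55.4% and the control libraries in 62.3% and 55.5%. With lists of equal length, lost regions had a peak in 60.9% and 52.2% of cases in control and in 27.6% and 28.0% in Flt3-ITD. These 4 lists then had a peak in similar parts of all regions, from 61.5% to 62.7%.

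Gained regions showed a smaller difference in the other direction. Of the 13744 gained regions, 40.6% and 36.3% had a peak in the Flt3-ITD libraries, and 34.8% and 25.5% in the control libraries. The difference of 8.33 percentage points was about the size of the gap between the controls, and was 3.70 without control replicate 2 and 13.0 without control replicate 1. With equal lists it was 18.4 percentage points, from 47.9% and 45.7% in Flt3-ITD and 28.4% and 28.5% in control. With the descriptions in place of the titles this difference turned to -6.74 percentage points, while that of the lost regions was -10.8.

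**Figure D2:**
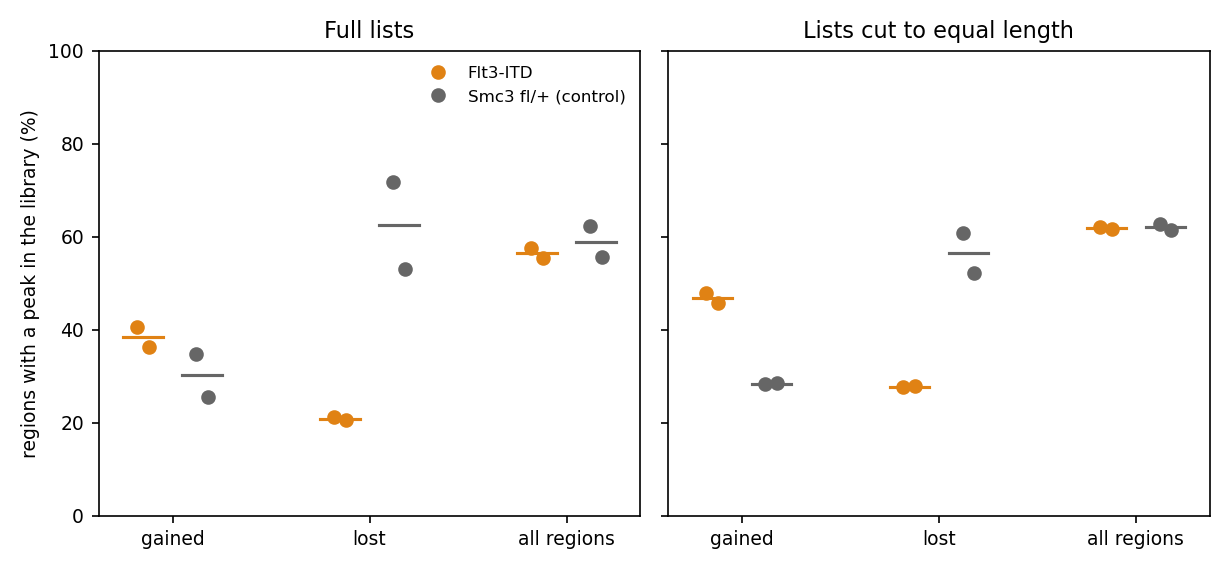
Share of gained, lost and all regions with a peak in each Flt3-ITD library (orange) and each control library (grey), with full lists on the left and lists cut to equal length on the right; points are libraries and lines their means. Lost regions lie at 20.5% to 28.0% in Flt3-ITD and 52.2% to 71.9% in control, while the same libraries lie close together over all regions.

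Region by region, gained regions fell into several patterns. Of 13744, 4975 (36.2%) had no peak in any of the 4 other libraries and so were open in the combined genotype alone. In 1316 (9.58%) all 4 others had a peak, so that Smc3 del/+ alone lacked one. Both Flt3-ITD libraries and no control had a peak in 958 (6.97%), and both controls and no Flt3-ITD library in 415 (3.02%). Over all 103969 regions the same 4 patterns held 22.6%, 39.4%, 2.66% and 4.25%. Gained regions were thus above all regions where no other library or only the Flt3-ITD pair had a peak, and below them in the rest of these 4 patterns. All regions include the 38517 shared ones, none of which can be gained. Of the shared regions, 85.8% had a peak in all 4 other libraries and 0.366% in none. The gaps in the first and second patterns therefore follow in part from the definition of gained regions. Among patterns where a pair of replicates was split, the largest was 1 Flt3-ITD library and no control. It held 2052 gained regions (14.9%), against 6.48% of all regions. Regions open in the combined genotype alone ranked lowest in its lists, at a median score percentile of 24.8, against 46.9 for those with both Flt3-ITD libraries and no control, and 46.6 for those with all 4.

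Lost regions were divided otherwise. Both controls and no Flt3-ITD library had a peak in 1209 of 4086 (29.6%), and the reverse was seen in 57 (1.40%). Smc3 del/+ was the only open genotype in 629 (15.4%), and the combined genotype the only closed one in 339 (8.30%). Over all regions these 4 patterns held 4.25%, 2.66%, 22.6% and 39.4%, so lost regions were above all regions in the first of them and below in the rest of these 4. A peak in 1 control and no Flt3-ITD library was common too, in 1081 lost regions (26.5%) against 7.61% of all regions. The 1209 regions had the widest peaks of these classes, with a median of 512 bp, against 371 bp in the 57. With lists of equal length the corresponding counts were 1308 and 158 of 5861 lost regions, and 836 and 140 of 7287 gained regions for both Flt3-ITD libraries without control and the reverse.

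Where regions were open in both groups, their peaks were narrower in the median with Flt3-ITD added, though single regions went both ways (quartiles of the log2 difference -0.60 and 0.16). Over the 38517 shared regions the median peak width (the widest peak of a library in the region) was 408 and 409 bp in Smc3-deleted Flt3-ITD and 445 and 441 bp in Smc3 del/+. The median log2 width difference per region was -0.13 (ratio 0.915), while replicates of a group differed by -0.00342 and 0.00385 on the same scale. Both Smc3-deleted Flt3-ITD libraries were narrower than both Smc3 del/+ libraries in 9971 shared regions (25.9%) and wider in 4443 (11.5%). The median difference between the groups was -0.13 with lists of equal length too. It lay between -0.14 and -0.09 in every alternative run.

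The widths fell into 2 classes, and the classes differed in frequency. In the 4 lists the commonest width was 350 to 400 bp, the numbers were lowest at 650 to 700 bp, and they rose again to a second maximum at 1050 to 1100 bp. Peaks of 650 bp or more are called broad here, a limit chosen after the widths were seen. Broad peaks numbered 16401 and 16932 in the Smc3-deleted Flt3-ITD lists (20.9% and 21.7%) and 18368 and 18398 in Smc3 del/+ (30.8% and 30.1%). Narrow peaks numbered 61409 ± 696 and 41968 ± 983 (SD, n = 2 each). The list of the combined genotype was therefore longer through narrow peaks alone, and held fewer broad ones. With lists cut to 59641 peaks each, 11461 and 11952 were broad in the combined genotype against 18368 and 17979 in Smc3 del/+.

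**Figure D3:**
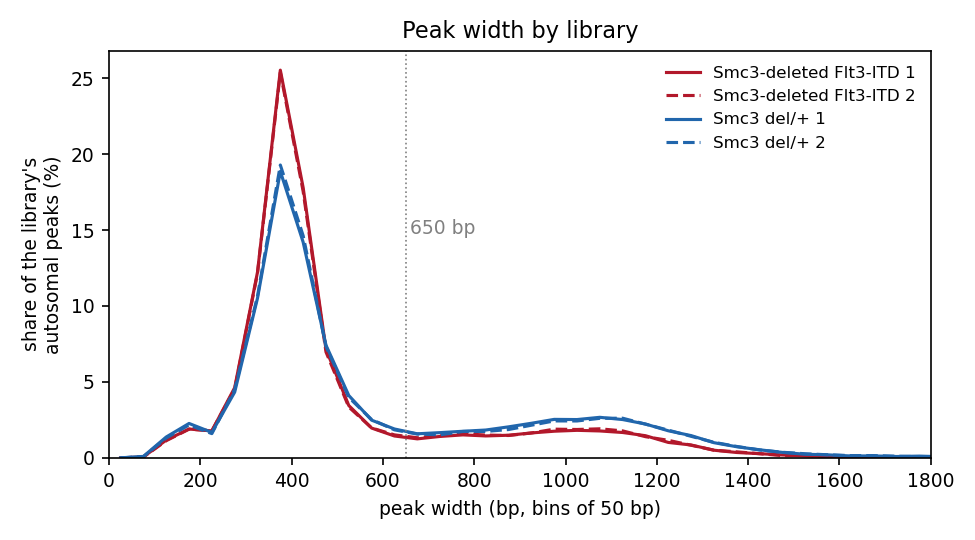
Share of each library's autosomal peaks (%) by peak width in bins of 50 bp, with replicate 1 as solid and replicate 2 as dashed lines; the dotted line marks 650 bp. Smc3-deleted Flt3-ITD (red) has the higher maximum at 350 to 400 bp and Smc3 del/+ (blue) the higher second maximum near 1050 to 1100 bp, and replicates lie almost on each other.

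At the shared regions 20.4% and 21.4% of the Smc3-deleted Flt3-ITD peaks were broad, against 32.8% and 32.2% of those in Smc3 del/+. In 2266 shared regions (5.88%) the peak was broad in both Smc3 del/+ libraries and narrow in both of the combined genotype, and in 596 (1.55%) it was the reverse. The class of a single region was not stable between replicates. Of the shared regions broad in one library, 43.9% to 48.4% were broad in the other library of its group, and the rest were narrow there. Split by class, a division that the width change itself decides, the median log2 difference was -0.03 over the 15779 shared regions whose 4 peaks were all narrow, -0.04 over the 1623 whose peaks were all broad, and -0.48 over the 21115 of mixed class.

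Flt3-ITD and control differed in the other direction in this measure. In the 33048 regions called in all 8 libraries, broad peaks made up 28.6% and 28.9% in Flt3-ITD and 21.1% and 22.3% in control. They made up 20.4% and 21.2% in Smc3-deleted Flt3-ITD and 33.4% and 32.7% in Smc3 del/+. The 2266 regions that were narrow with Flt3-ITD added were broad in 39.1% and 38.7% of the Flt3-ITD calls and in 29.8% and 31.1% of the control calls. The 596 regions of the reverse kind were broad in 47.5% and 46.7% of the Flt3-ITD calls and in 40.6% and 38.3% of the control calls. In both kinds the Flt3-ITD libraries were thus higher than the controls, as they were over all shared regions (28.5% and 28.7% against 21.2% and 22.4%).

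**Figure D4:**
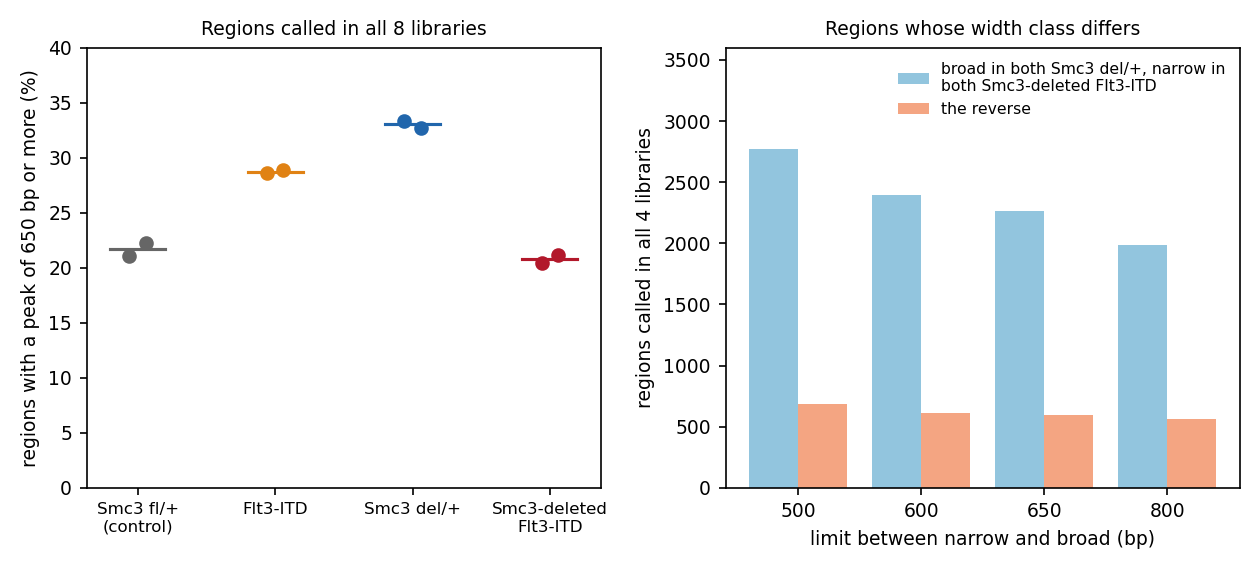
Left, share of the 33048 regions called in all 8 libraries whose peak is 650 bp or wider, with points for libraries and lines for means; right, shared regions broad in one group and narrow in the other under 4 limits. Smc3 del/+ is highest (32.7% and 33.4%) and Smc3-deleted Flt3-ITD (20.4% and 21.2%) overlaps control (21.1% and 22.3%), and the blue bars (2266 at 650 bp) exceed the orange ones (596) at each limit.

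Single shared regions changed width several-fold. The largest widening was at chr13:55311196-55314950, with peaks of 3530 and 3635 bp in Smc3-deleted Flt3-ITD against 367 and 378 bp in Smc3 del/+, a 9.62-fold ratio. Flt3-ITD had 1302 and 2026 bp there and control 363 and 283 bp, so the libraries with Flt3-ITD were wider than those without. The next were chr16:56096376-56097428 (993 and 986 bp against 154 and 157 bp), chr7:75518614-75519594 (808 and 969 bp against 173 and 114 bp) and chr11:59318278-59320332 (1927 and 1877 bp against 284 and 328 bp). In these 3 regions the Flt3-ITD and control libraries were mixed.

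The largest narrowing was at chr6:8434269-8436575. There the peaks measured 160 and 192 bp in Smc3-deleted Flt3-ITD and 2232 and 2250 bp in Smc3 del/+, a log2 difference of -3.68. Control had 366 and 525 bp, and neither Flt3-ITD library had a peak. At chr14:26587303-26589347 (324 and 136 bp against 1789 and 1684 bp), Flt3-ITD (366 and 268 bp) and control (452 and 427 bp) were narrow as well, and Smc3 del/+ stood alone. At chr10:5301320-5302564 (108 and 138 bp against 886 and 1245 bp) and chr5:104267217-104268280 (128 and 134 bp against 833 and 1011 bp), Flt3-ITD was broad (1088 and 1143 bp, and 1300 and 762 bp) and control narrow (331 and 385 bp, and 396 and 400 bp).

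Gained regions lay farther from shared regions than lost ones. The median distance to the nearest shared region was 10645 bp for gained, 7634 bp for lost and 7884 bp for regions called in a single library. A shared region lay 6076 bp from the next. Within 1 kb of a shared region were 8.43% of gained, 14.3% of lost and 15.8% of single-library regions, and within 10 kb 48.5%, 55.1% and 55.1%. With lists of equal length the medians were 11632 bp for gained and 8873 bp for lost regions, and gained regions lay farther in each of the 12 alternatives run. Regions open in the combined genotype alone were the farthest of the gained patterns, at a median of 13201 bp, and those open in all but Smc3 del/+ the nearest, at 7242.5 bp.

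**Figure D5:**
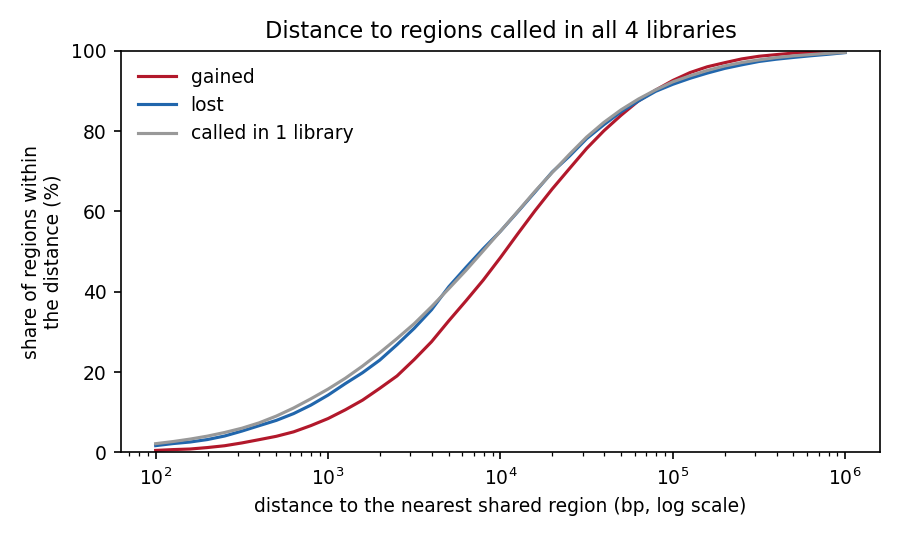
Share of gained (red), lost (blue) and single-library regions (grey) that lie within a given distance of the nearest shared region, on a log scale in bp. The gained curve runs below the others up to about 50 kb (8.43% against 14.3% and 15.8% at 1 kb), and the lost and single-library curves lie close together.

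Some gains and losses stood side by side. A gained region lay within 1 kb of 380 lost regions (9.30%), against 5.03% of single-library and 3.08% of shared regions. Within 10 kb the shares no longer stood apart, at 23.1%, 24.3% and 24.0%. A peak of the combined genotype, of any kind, lay within 1 kb of 29.6% of lost regions, and a Smc3 del/+ peak within 1 kb of 16.8% of gained regions. No peak of the other group was found within 10 kb of 4903 gained (35.7%) and 1092 lost regions (26.7%). These shares depend on the length of the other group's lists, and the gaps were smaller with lists of equal length. There, 24.7% of lost and 17.8% of gained regions had a peak of the other group within 1 kb. None lay within 10 kb of 35.5% of gained and 32.4% of lost regions.

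Gains and losses were spread over all autosomes. The gained share of a chromosome's regions ran from 11.3% on chromosome 7 to 14.8% on chromosome 19, and the lost share from 3.00% on chromosome 12 to 4.85% on chromosome 3. In the full lists every autosome had more gained than lost regions. The ratio ran from 2.74 on chromosome 3 to 4.73 on chromosome 12. Over all autosomes it was 3.36 there and 1.24 with lists of equal length, for which the ratio by chromosome is not given. In windows of 1 Mb the median was 5 gained regions and 1 lost region. The windows with most gains were chromosome 2 from 52 to 53 Mb (27 of 84 regions), chromosome 6 from 108 to 109 Mb (27 of 116) and chromosome 17 from 84 to 85 Mb (25 of 161). With equal lists they held 16, 15 and 13.

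The window with most losses by number was chromosome 5 from 149 to 150 Mb, with 13 of 110 regions lost and 4 gained. None of these 13 had a peak in either Flt3-ITD library, and 8 and 5 had one in the control libraries. Chromosome 1 from 167 to 168 Mb had 11 losses of 115 regions, of which 1 and 0 had a peak in the Flt3-ITD and 10 and 6 in the control libraries. Chromosome 3 from 60 to 61 Mb had 12 losses beside 13 gains among 86 regions, and 4 and 5 of the losses had a peak in Flt3-ITD against 8 and 8 in control. By share of regions this last window had more losses (14.0%) than that on chromosome 5 (11.8%). With equal lists the windows on chromosomes 5, 1 and 3 held 15, 15 and 13 losses.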

How the data were processed

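Each library's peaks were deposited as a list without header, with chromosome, start, end, name, a score and strand. The authors' deposited score runs from 0.99 to 1 and no source used for this work says what it measures. It was used for ranking inside a list and nothing else. Starts and ends are other values, positions in bp deposited by the authors, read as counted from 0 and printed from 1. Bowtie and mm9 are named per the submitters' processing notes; the peak caller, the filters and the handling of duplicates and of the transposase offset are not named there. The labels speak of individual mice but not of different animals per library, so the spread may be technical.

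Peaks were merged and called with Python 3.11.15, numpy 2.4.6, pandas 2.3.3 and scipy 1.17.1, and the steps were tested on simulated data; matplotlib 3.10.9 drew the figures. Regions and lists were chosen with earlier results of these data known. Named were, per direction, the 6 highest by score then width, the 4 highest without a peak of the other group within 10 kb and changed alike in equal-length lists, the 4 largest width changes with 1 peak per library, 3 windows, and 3 regions following Flt3-ITD. Gene lists and sequences were not analysed here, for lack of an mm9 reference.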

Additional observations from a re-analysis of the deposited data

Results flagged for a closer look

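Flt3-ITD went with opposite width differences on the 2 Smc3 backgrounds. In regions called in all 8 libraries the log2 width difference was -0.135 with Smc3 deletion (408 and 409 bp against 448 and 443 bp) and 0.07 without it (428 and 430 bp against 410 and 411 bp in control). All libraries of each pair moved the same way, and the difference between the backgrounds was not tested. Mx1-Cre is absent from control by its title, so in the second difference Flt3-ITD and the recombinase cannot be told apart.

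Peaks on Y, which the comparison left out, numbered 288 ± 8.49 in Smc3-deleted Flt3-ITD, above Smc3 fl/+ control (93.5 ± 6.36), Flt3-ITD (91.5 ± 7.78) and Smc3 del/+ (84.5 ± 0.707; SD, n = 2 each). Peaks on X numbered 2102 and 2185 in the combined genotype and 2228 and 2255 in Smc3 del/+. The part of sex or strain in the autosomal results was not tested.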

How the results depend on the processing

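Directions held in all alternatives, except for gained-region calls with the descriptions in place of the titles. Gains outnumbered losses in 12 of 12, and gained regions lay farther from shared regions than lost ones in 12 of 12. The width difference was negative in 11 of 11, and lost regions were less often open in Flt3-ITD than in control in 13 of 13. For gains against losses this count says little, because only the equal-length alternative took away the difference in list length. There gains made up 55.4% of the changed regions, against 77.1% as reported. Gained regions were more often open in Flt3-ITD in 12 of 13, and with the descriptions in place of the titles the difference was -6.74 percentage points. Sizes moved more: 53 of 128 recomputed values stayed within a limit, and the limit differed by kind of result. Width and call differences were held to the spread of replicates, and distances to an interval of the median. Shares were held to their exact binomial interval and counts of regions to a fixed fold change, so the kinds cannot be compared by this number. The causes were not tested.

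With the descriptions followed, there were 9024 gained and 1921 lost regions (gained share 82.4%), at medians of 9412 and 3827 bp from shared regions. The difference in lost-region calls was -10.8 points, the width difference -0.0937, and 34.5% of the shared regions with separated widths were wider (30.8% as reported). Equal-length lists gave 7287 gained regions, a gained share of 55.4%, a gained-region call difference of 18.4 points, distances of 11632 and 8873 bp and 29.5% wider. The upper 50% of each list gave 7450 gained and 1949 lost regions (79.3%), a lost-region call difference of -25.7 points, 16794 and 14797 bp, and 27.6% wider. There, 1184 shared regions were narrow in the combined genotype and broad in Smc3 del/+, and 211 were the reverse. Peaks with a score of exactly 1, an alternative chosen after seeing the data, gave 7465 gained and 493 lost regions (93.8%), -16.1 points, 27321 and 24579 bp, a width difference of -0.11, 27.0% wider, and 685 and 117 regions. The gained share was 73.5% when merging asked for overlap of 50% of the narrower peak, 78.7% when a peak within 500 bp also counted, 76.4% with peaks of at least 300 bp and 75.8% with X and Y. Distances for gained and lost were 12091 and 9202 bp with the 50% overlap and 11541 and 8622.5 bp between centres, and 9376 bp for lost with X and Y.

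Leaving out 1 library loosens the definition, since the remaining library of its group decides alone. Gained regions then numbered 18564 to 24858 (highest without Smc3-deleted Flt3-ITD replicate 2, 24664 without replicate 1) and lost regions 5981 to 10647 (highest without Smc3 del/+ replicate 1, 10118 without replicate 2, 6148 without Smc3-deleted Flt3-ITD replicate 1). The gained share ran from 63.6% to 80.6%, the wider share from 36.1% to 38.6% and the width difference from -0.14 to -0.10. Distances ran from 8278 to 9725 bp for gained and from 5793 to 6956 bp for lost regions. Call differences ran from 3.70 to 13.0 points for gained and from -51.0 to -21.1 for lost regions. Regions narrow in the combined genotype and broad in Smc3 del/+ numbered 3340 to 7110, and the reverse 1451 to 2358.

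No paired analysis was possible because the results are counts, shares and medians of peak calls with no fitted test, and nothing in the labels says what a shared replicate number stands for. Depth is unknown, so a region without a peak cannot be told from one below the caller's limit.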
